A study of Mus musculus with 8 samples.

Results

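The regions described here are stretches of liver chromatin that were called open in control mice and not called in Alb-D2KO mice. They lie inside introns of long genes, far from any coding promoter. Of the 8031 areas of reduced chromatin accessibility (RCAs) listed for Alb-D2KO liver, 358 met the rule, or 4.46% (95% Wilson interval 4.03 to 4.93, which covers counting error only). The rule kept an RCA that overlapped a gene body, no exon and no sequence within 200 bp of any transcript start, that was over 30000 bp edge to edge from the nearest start of a coding gene, and that lay in a coding gene of at least 100 kb. They are called deep intronic RCAs below, and the long gene that holds one is called its host. They made up 11.1% of the 3216 intronic RCAs (95% Wilson interval 10.1 to 12.3) and lay in 234 hosts. The 2 deposited lists held 8281 regions together.

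The libraries were ATAC-seq of nuclei from frozen liver of adult mice, given as C57BL/6 in the labels and as C57BL/6J in the study's methods, 50000 nuclei each, with 4 control and 4 Alb-D2KO libraries. Alb-D2KO mice carry a floxed Dio2 gene that is deleted in hepatocytes by Cre recombinase under the albumin promoter, while the other cells of the liver keep the gene. The control libraries are titled "cre", and the study calls its control mice Cre animals. Open regions were called once per genotype on grouped libraries, so the data hold no replicate error and no difference between genotypes could be tested for a single region. By the study's methods, calls on single samples gave only a few regions, plainly not from ATAC enrichment, and these were left out of the grouped call.

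Dio2 encodes the type 2 deiodinase, which turns the prohormone T4 into T3, the ligand of the thyroid hormone receptors. ATAC-seq marks open chromatin, where a transposase can reach the DNA between nucleosomes. Open regions inside introns and far from promoters are often enhancers, stretches that bind transcription factors and act on a promoter at a distance, either that of their host or that of another gene. Long introns hold much of the distal regulatory sequence of developmental and metabolic genes.

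At Dio2 itself neither list held a region, also when 10000 bp on each side were included, so the lists do not check the deletion. Alb, the albumin gene of hepatocytes, held 1 RCA. The lists contain differences only, so the regions that both genotypes share have no position here, and neither the tissue nor the depth of the libraries could be checked from them. A region that is missing from the Alb-D2KO call can reflect fewer cells with it open or less accessibility per cell. It can also reflect a signal that fell short of the caller's threshold. These cannot be told apart in calls pooled from whole liver. Region numbers ran up to at least 22368 in the control call and 14825 in the Alb-D2KO call, and the part of this difference was not tested.

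The sequences below are the summit of the region with 100 bp on each side, from the plus strand of the mm10 genome. The first 5 belong to the deep intronic RCAs with the highest signal. Foxn3, also among the 10 with the highest signal, Nfib, the host with the most regions after a composite gene model described later, and Thrb, the gene of thyroid hormone receptor beta, were added after their values were seen. Capitals mark exact matches to the searched motifs that are spelled out later.
Cadm1 (chr9:47625180-47625380): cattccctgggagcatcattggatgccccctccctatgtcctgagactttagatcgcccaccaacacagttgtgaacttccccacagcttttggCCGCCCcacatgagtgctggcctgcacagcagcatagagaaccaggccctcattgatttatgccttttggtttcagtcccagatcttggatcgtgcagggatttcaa
Mtss1 (chr15:59004078-59004278): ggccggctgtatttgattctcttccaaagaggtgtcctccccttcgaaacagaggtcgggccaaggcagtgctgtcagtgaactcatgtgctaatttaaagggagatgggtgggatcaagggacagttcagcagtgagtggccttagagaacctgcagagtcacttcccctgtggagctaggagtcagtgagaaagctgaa
Lpp (chr16:24483565-24483765): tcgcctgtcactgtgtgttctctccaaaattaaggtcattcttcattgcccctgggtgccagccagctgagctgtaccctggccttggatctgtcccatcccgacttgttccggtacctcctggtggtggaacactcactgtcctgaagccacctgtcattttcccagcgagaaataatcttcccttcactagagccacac
Gbf1 (chr19:46198876-46199076): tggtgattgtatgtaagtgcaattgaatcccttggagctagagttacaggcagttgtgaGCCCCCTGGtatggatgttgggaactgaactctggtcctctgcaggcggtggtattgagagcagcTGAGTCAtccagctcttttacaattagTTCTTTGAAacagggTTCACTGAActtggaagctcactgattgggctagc
Mob3b (chr4:35003963-35004163): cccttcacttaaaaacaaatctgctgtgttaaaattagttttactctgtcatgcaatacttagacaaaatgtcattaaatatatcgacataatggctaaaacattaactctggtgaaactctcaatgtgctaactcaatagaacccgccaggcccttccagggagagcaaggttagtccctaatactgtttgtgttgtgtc
Foxn3 (chr12:99234375-99234575): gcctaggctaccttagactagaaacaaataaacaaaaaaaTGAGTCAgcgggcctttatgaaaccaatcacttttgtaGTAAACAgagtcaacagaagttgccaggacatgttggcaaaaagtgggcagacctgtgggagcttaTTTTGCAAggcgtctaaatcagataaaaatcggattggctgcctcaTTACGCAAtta
Nfib (chr4:82404402-82404602): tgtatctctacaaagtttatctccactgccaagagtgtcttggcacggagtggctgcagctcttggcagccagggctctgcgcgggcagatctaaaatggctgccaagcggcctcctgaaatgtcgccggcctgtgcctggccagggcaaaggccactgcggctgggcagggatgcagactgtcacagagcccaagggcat
Thrb (chr14:17899849-17900049): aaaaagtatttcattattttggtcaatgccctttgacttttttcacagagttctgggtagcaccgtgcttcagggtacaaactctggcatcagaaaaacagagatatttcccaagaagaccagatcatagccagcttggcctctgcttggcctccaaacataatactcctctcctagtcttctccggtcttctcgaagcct
These windows ranged from 37.8% GC at Mob3b to 60.2% at Nfib. The Foxn3 window held 4 matches: AP-1 at bases 41 to 47, FOXA at bases 79 to 85, and C/EBP at bases 145 to 152 and 191 to 198. The Gbf1 window held 2 STAT5 matches, 1 AP-1 match and 1 CTCF match. Cadm1 had 1 SP1 match, and the windows of Mtss1, Lpp, Mob3b, Nfib and Thrb held none of the motifs as spelled.

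The signal of each region is an area (AUC), made by adding up along the region the −log10 p that the peak caller gave each position in the pooled control libraries, with 200 as the smallest area accepted. Deep intronic RCAs had a median AUC of 268 (quartiles 231 and 329, n = 358). The other intronic RCAs had a median of 272 (n = 2858), and the intergenic RCAs 271 (n = 2428). Promoter RCAs were higher, with a median of 304 (quartiles 246 and 397, n = 1560). The range of the deep intronic RCAs ran from 200.01 to 733, and 232 of them, or 64.8%, stayed under 300. In all RCAs, 59.2% stayed under 300. Of these 232, 63 had an AUC under 220, close to the smallest area accepted, which is 17.6% of the deep intronic RCAs against 16.4% of all RCAs.

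In width the deep intronic RCAs measured 304.5 bp at the median, from 164 to 830 bp. Other intronic RCAs measured 313 bp and promoter RCAs 391.5 bp. Their median GC content was 49.4%, against 50.6% in other intronic, 50.6% in intergenic and 60.0% in promoter RCAs. CpG dinucleotides occurred 1.39 times per 100 bp at the median, against 5.49 in promoter RCAs. The eligible intron sequence round them had a mean GC of 40.8%. Masked repeats covered 7.52% of a deep intronic RCA on average, against 29.5% of a window of eligible sequence. The authors had removed poorly mapped alignments, and the windows were not limited to sequence to which reads map well. The part of this in the repeat difference was not tested. No masked repeat base was present in 142 of the 358, and 5 were over 50% repeat. The quartiles of the deep intronic RCAs overlapped those of the other distal classes in AUC, width and GC, while in GC the quartiles of the promoter class (53.4% and 66.9%) lay above theirs (45.7% and 53.0%).

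**Figure D1:**
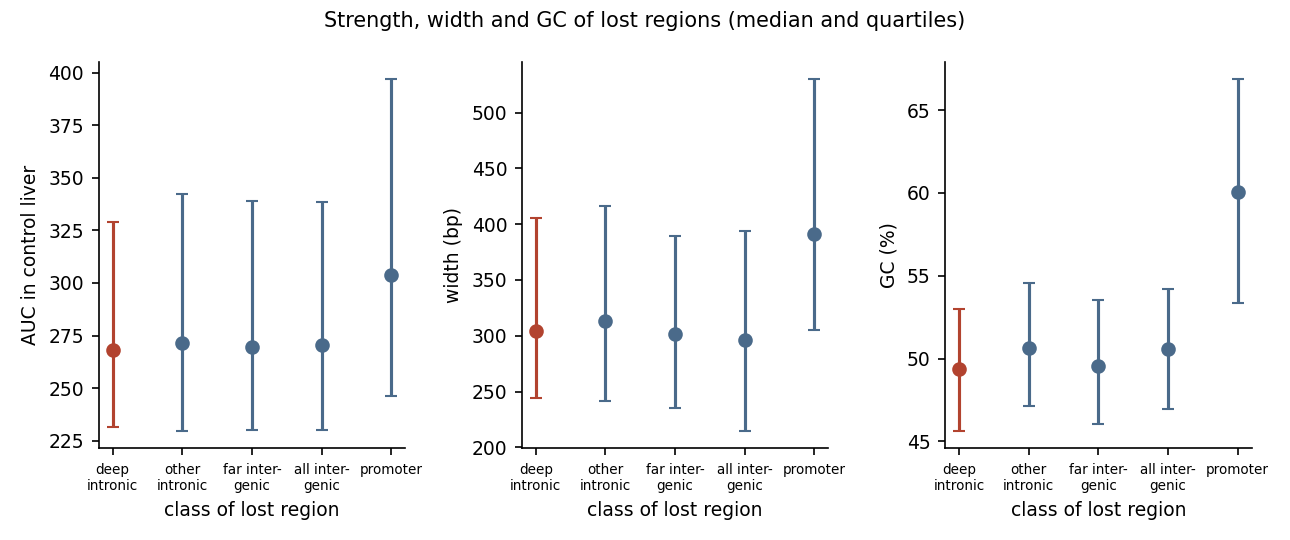
Points are medians and bars the quartiles of AUC, width in bp and GC in percent for 5 classes of RCA, with deep intronic RCAs in red and intergenic RCAs over 30000 bp from a coding start called far intergenic. The deep intronic median AUC of 268 lies beside 272 for other intronic and below 304 for promoter RCAs, and the axes do not start at 0.

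The 10 deep intronic RCAs with the highest AUC lay in 10 different hosts, with AUCs from 551 to 733. The highest, with an AUC of 733 over 797 bp, lay at chr9:47624643-47625439 in the first intron of Cadm1, an adhesion molecule of the immunoglobulin family, 94.3 kb from its coding start. The next, with an AUC of 703, lay at chr15:59003705-59004534 in Mtss1, which bends membranes and binds actin. A region with an AUC of 687 lay at chr16:24483417-24484114 in Lpp, a LIM protein of focal adhesions. Gbf1, an exchange factor for Arf GTPases at the Golgi, held a region with an AUC of 637 at chr19:46198382-46199141.

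Mob3b, a member of the MOB family of kinase activators, held a region with an AUC of 598 at chr4:35003510-35004237, 109.7 kb from the nearest coding start. That start belongs to Cga and not to Mob3b. Rai14, an actin-binding ankyrin repeat protein, held one with an AUC of 589.97. The region in Iqgap2, a scaffold protein that binds actin, reached 575, and the region in Foxn3, a forkhead repressor, reached 567. Pard3, a scaffold of cell polarity, held one with an AUC of 554. Arhgap26, a GTPase-activating protein, held the tenth, with an AUC of 551. The symbol covers a pair of overlapping coding models, and this region lies in the upstream model only, nearer to the start of Fgf1. The other model is counted as a host of its own, with 1 region of AUC 244. An AUC under 500 was found in 344 of the 358, or 96.1%.

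To see how the regions thin out with distance, RCAs were counted per Mb of non-exonic sequence in bins of distance to the nearest coding start. In introns of coding genes of at least 100 kb, the density was 4.61 per Mb within 5 kb of a start (301 RCAs) and 2.88 per Mb between 10 and 30 kb (412 RCAs). Beyond the 30 kb of the rule it was 1.75 per Mb between 30 and 50 kb (95% Poisson interval 1.47 to 2.06, 144 RCAs) and 1.25 between 50 and 100 kb (1.04 to 1.48, 134 RCAs). It was 0.709 between 100 and 200 kb (0.536 to 0.921, 56 RCAs) and 0.41 beyond 200 kb (0.262 to 0.609, 24 RCAs). Each bin of the deep sequence was lower than the bin before it. The intervals of neighbouring bins overlapped between 30 to 50 and 50 to 100 kb and between 100 to 200 kb and beyond 200 kb, and did not overlap between 50 to 100 and 100 to 200 kb. Intergenic sequence followed a like decline, from 2.42 per Mb between 30 and 50 kb (95% Poisson interval 2.15 to 2.71) to 0.187 beyond 200 kb (0.152 to 0.228). Introns were below intergenic sequence in the 30 to 50 kb bin, where the intervals did not meet, and above it beyond 200 kb. These densities count lost regions only, and how many regions stayed open at each distance was not analysed here.

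**Figure D2:**
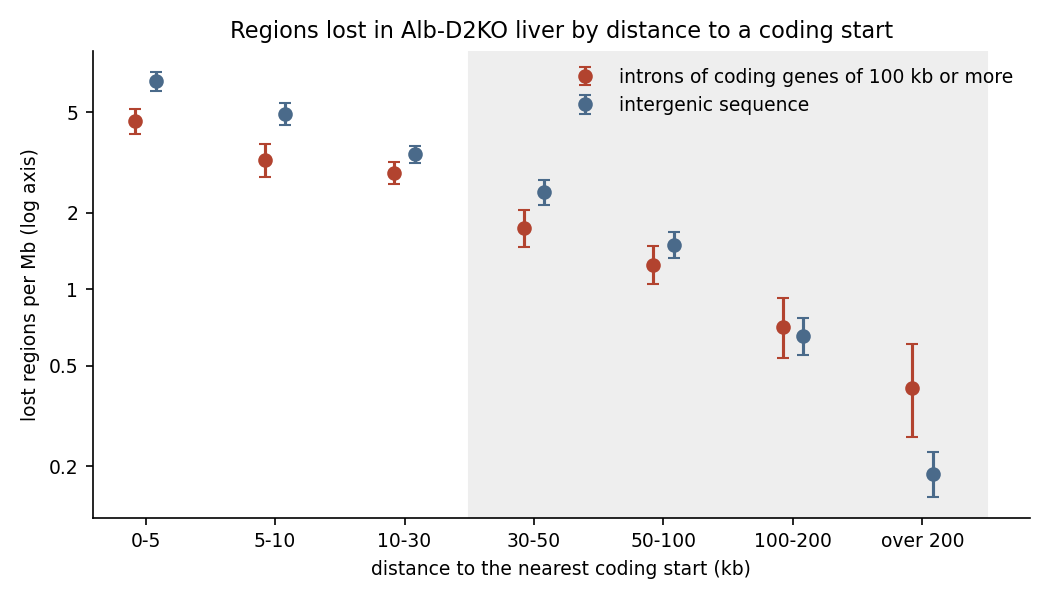
Points give RCAs per Mb (log axis) in bins of distance to the nearest coding start in kb, for introns of coding genes of at least 100 kb (red) and intergenic sequence (blue), with 95% Poisson intervals as bars and the deep bins shaded. The intron density falls from 4.61 per Mb within 5 kb to 0.41 per Mb beyond 200 kb.

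Over all the sequence that could hold one, 327 Mb or 12.4% of the sequenced genome, deep intronic RCAs reached 1.09 per Mb (95% Poisson interval 0.983 to 1.21). Other intronic sequence had 3.80 per Mb and intergenic sequence over 30000 bp from a coding start 0.777 per Mb. Density also fell with the length of the host. Genes of 100 to 200 kb had 2.10 deep intronic RCAs per Mb, those of 200 to 400 kb had 1.63, those of 400 to 800 kb had 0.629 and those of at least 800 kb had 0.395. Longer genes can hold sequence farther from a start, and the part of distance in this fall was not tested. The share of genes that held any went the other way, from 7.98% of 1140 genes of 100 to 200 kb to 18.2% of 99 genes of at least 800 kb. The 1140 genes shared 57.7 Mb of eligible sequence and the 99 genes 91.2 Mb. The part of this in the shares was not tested.

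The median distance to a coding start was 59.2 kb (quartiles 40.2 and 95.5), and 80 of the 358 were over 100 kb away. The most remote was 833 kb away in Fhit, a tumour suppressor that spans a common fragile site, with an AUC of 246. In 287 cases, or 80.2%, the nearest coding start was that of the host. The other 71 lay nearer to the start of another coding gene. Intron 1 or 2 of the longest transcript across the region held 179 of the 358, and the last intron held 26. The intron itself was long, with a median of 82.3 kb and 69.3% at 50 kb or more. When starts of noncoding genes were counted as well, 131 of the 358 lay within 30 kb of a start and 20 within 5 kb.

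At the distance threshold, the members just inside lay 30022 bp (in Mbnl2, AUC 288) and 30092 bp (in Rnf144b, AUC 402) from a coding start. Just outside were RCAs at 29974 bp (in Nav1, AUC 264) and 29969 bp (in Pakap, AUC 235). At the length threshold, the shortest hosts were Nceh1 (101644 bp, AUC 467) and Ppargc1b (102296 bp), and the longest genes left out that held an otherwise matching RCA were Prep (99996 bp, AUC 312) and Abcc12 (98427 bp, AUC 324). These values set members and non-members side by side and were not compared by a test.

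Of the 2125 coding genes of at least 100 kb with eligible sequence, 234 were hosts, or 11.0%. A single region was held by each of 165 hosts, 2 each by 40, 3 each by 14 and 4 each by 13. Nfib held 6 and the gene model Gm20388 held 13. Hosts were 238 kb long at the median, against 189 kb for all 2125 genes. The 14 hosts described here as leading held 67 of the 358, or 18.7%.

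Gm20388 is not a single gene in the usual sense. The annotated model spans 4.43 Mb of chromosome 8, encloses 71 other coding genes, and no deep intronic RCA in it had its start as the nearest. Of its 13 regions, 5 lay in Gse1, which encodes a coiled-coil protein, with AUCs of 223, 348, 278, 381 and 291, and 1 lay in Galnt2, a glycosyltransferase gene, with an AUC of 251. The other 7 lay in no other gene. Of these, 3 had AUCs of 217, 249 and 249, with Foxf1, 1700018B08Rik and Banp as the nearest coding genes at 163, 124 and 133 kb, and 4 lay between 48.2 and 63.6 kb from the start of Rhou, a small GTPase. The highest of these 4, at chr8:123702092-123702549, had an AUC of 537. Without Gm20388, 351 deep intronic RCAs in 235 hosts were left, and Gse1 took the place after Nfib with its 5 regions.

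Nfib, a transcription factor of the nuclear factor I family, held its 6 regions on the minus strand of chromosome 4, between 163 and 313 kb from its 5′ end. Going from that end their AUCs were 203, 399, 441, 358, 232 and 296. The last 4 of them lay between 301 and 313 kb in an intron of 115 kb. The strongest lay at chr4:82404356-82404676. Nfib held 13 RCAs in all, including 1 within 200 bp of an own start, and by the numbering of control regions the stretch from the first to the last held 15 open regions, of which 13 were lost.

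Thrb encodes thyroid hormone receptor beta, the main thyroid hormone receptor of hepatocytes. Its 4 regions had AUCs of 285, 315, 455 and 309.9, going from the 5′ end, at 124, 186, 239.8 and 257 kb. The strongest, at chr14:17899789-17900338, was 62.5 kb from the nearest Thrb start and is the window printed above. HNF4A matches occurred round the summits of the first and the last of them, and C/EBP and STAT5 matches in the one at chr14:17845856-17846165. By the numbering of control regions, no open region between the first and the last RCA of Thrb was kept, and no RCA lay at an own start of Thrb.

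Zbtb16 encodes a zinc finger transcription factor also called PLZF. Its 4 regions had AUCs of 285, 216, 413 and 448, the strongest 106 kb from the nearest start, at chr9:48729544-48729891. Arid1b, a subunit of the BAF chromatin remodelling complex, held 4 with AUCs of 402, 363, 241 and 318 and also had an RCA at an own start.

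Prkce encodes protein kinase C epsilon, a lipid-activated kinase studied in hepatic insulin resistance. Its 4 regions had AUCs of 409, 370.5, 316 and 358 and spread from 69.2 to 434 kb along a gene of 490.1 kb. For 3 of the 4 the nearest coding start was that of Prkce. Pitpnc1, a phosphatidylinositol transfer protein, held 4 with AUCs of 519, 232, 264 and 276. Pik3ap1, an adaptor of phosphoinositide 3-kinase, held 4 between 36.7 and 45.5 kb from its 5′ end, with AUCs of 297, 253, 249.8 and 445. Cradd, a death domain adaptor, held 4 in an intron of 147 kb with AUCs of 397, 422, 219.5 and 257.

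Mob3b had 3 of its 4 regions between 154 and 170.4 kb from its 5′ end, with AUCs of 598, 264 and 320.01, and the other at 68.0 kb with an AUC of 298. None of the 4 had a Mob3b start as the nearest coding start. In Iqgap2 the AUCs were 239, 575, 301 and 223, and for 2 of the 4 the nearest start was that of F2rl2. Arhgef3, a guanine nucleotide exchange factor, held pairs at 67.3 and 72.3 kb and at 181 and 182 kb, with AUCs of 211, 250.3, 214 and 371. Ctif, a translation initiation factor tied to the nuclear cap-binding complex, held 4 with AUCs of 353, 295, 349.7 and 247, each nearer to the start of Smad7 than to its own. Ppargc1b, the coactivator PGC-1 beta of mitochondrial and lipogenic genes, held 4 with AUCs of 292, 274, 312 and 259.5 in a gene of 102 kb. A Ppargc1b start was the nearest for 2 of these 4, and the strongest was nearer to the start of Pde6a.

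**Figure D3:**
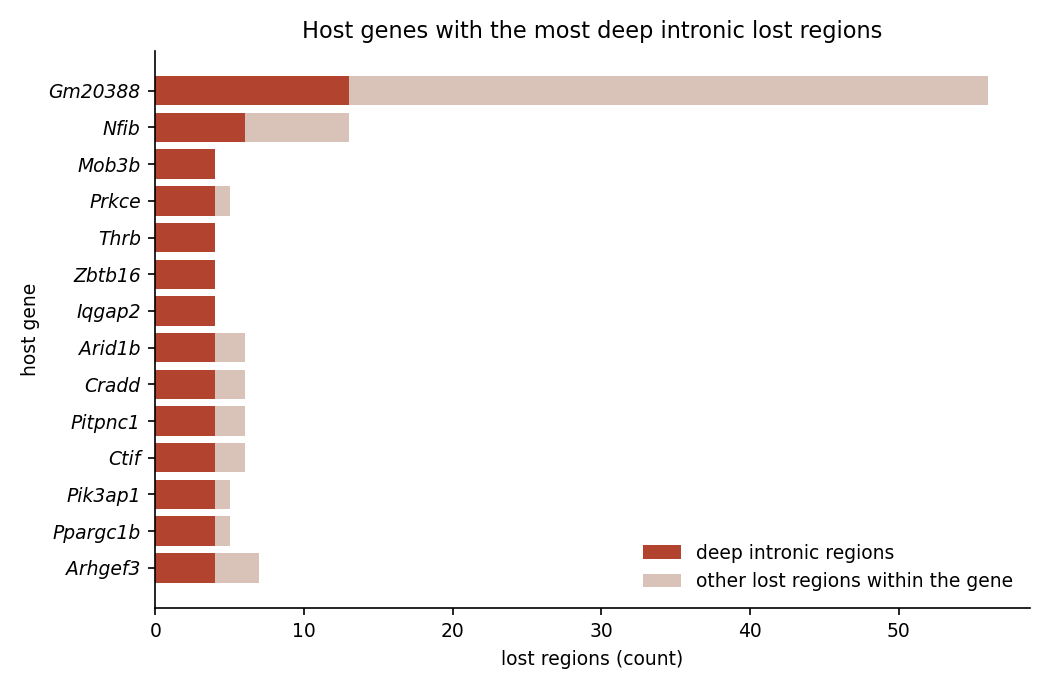
Bars count the RCAs in the 14 leading hosts by number of deep intronic RCAs, with deep intronic RCAs in dark red and other RCAs within the gene in pale red. Gm20388 has 13 deep intronic of 56 RCAs, Nfib 6 of 13, and the others 4 deep intronic RCAs each.

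**Figure D4:**
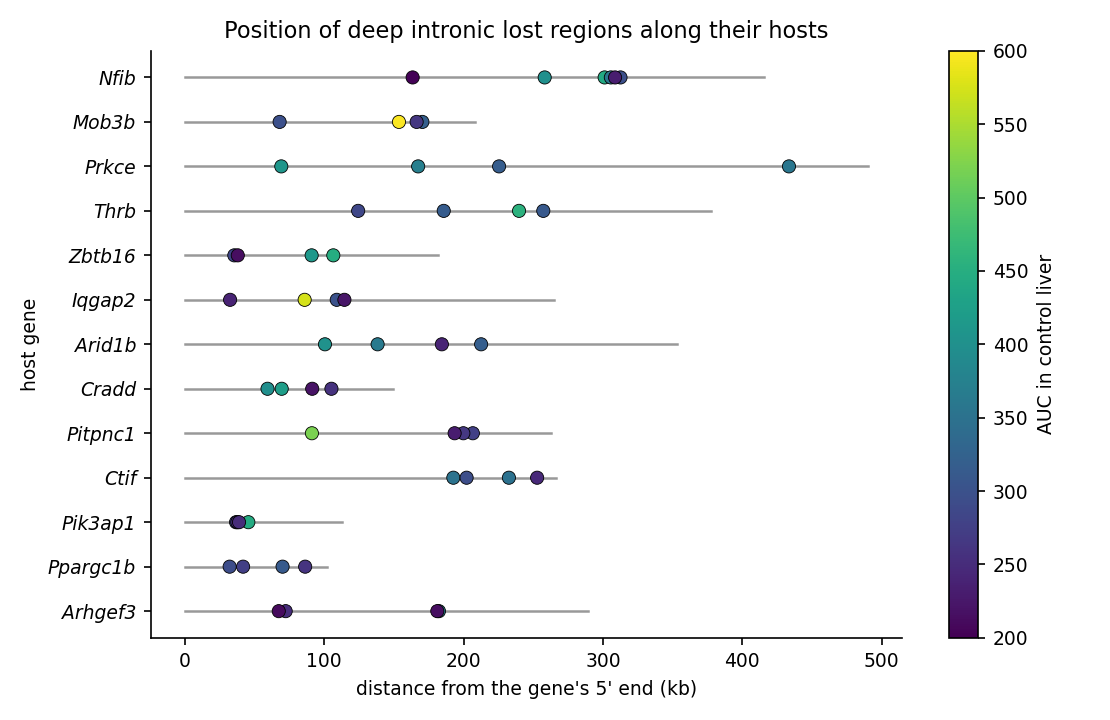
Each grey line is a host drawn to its length in kb from its 5′ end and each point a deep intronic RCA, coloured by its AUC in control liver, for the 14 leading hosts without Gm20388. Nfib has 4 of its 6 points between 301 and 313 kb, while the points of Prkce spread from 69.2 to 434 kb.

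By number per Mb of eligible sequence among hosts with 3 or more, the leading genes were Pik3ap1 with 68.4, Itpr1 with 67.7 and Ppargc1b with 63.6. Itpr1, the inositol trisphosphate receptor that releases calcium from the endoplasmic reticulum, held 3 in 44.3 kb of eligible sequence, with AUCs of 268, 368 and 236. The first pair of these lay 281 bp apart. Gng12, a G protein gamma subunit, followed with 37.6 per Mb, and Arhgef3 with 37.0.

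The neighbours of the deep intronic RCAs were looked at in the order of open regions. The caller numbered the open regions of control liver along the genome, up to at least 22368 of them, of which 8031 or 35.9% were RCAs. Of the open regions numbered directly before and after a deep intronic RCA, 51.0% were RCAs as well. The share was 42.8% round other intronic RCAs, 44.9% round intergenic RCAs over 30000 bp from a coding start, 40.8% round promoter RCAs and 41.9% round all RCAs. At least 1 of the neighbours was an RCA for 272 of the 358. In bp the neighbours were not closer, since the nearest other RCA was 43.2 kb away at the median, against 18.3 kb for other intronic RCAs and 40.5 kb for the far intergenic ones. These shares were not tested, and members of 1 host share neighbours.

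Within hosts that held 3 or more RCAs of any class, 91 in number, the stretch from the first to the last RCA held 661 control regions, and 462 of them were RCAs. Leaving out the first and the last, which are RCAs by construction, 280 of 479 were lost, or 58.5%. Because hosts with 3 or more RCAs were chosen, each still held an RCA in between by that choice. The choice raises the 58.5% and the counts of hosts that follow. They are therefore descriptions and cannot be set against the share of RCAs among all control regions. In 46 of the 91 hosts no control region in between was kept. Among the 14 leading hosts this was so for 5, which were Mob3b, Thrb, Iqgap2, Pitpnc1 and Pik3ap1.

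An own promoter was lost in a minority of hosts, but in a larger share of them than of the other long genes. An RCA within 200 bp of an own transcript start was present in 39 of the 234 hosts, or 16.7%. Among all 2125 long genes the share was 7.72%, and among the 1891 that were not hosts it was 6.61%. Among the 69 hosts with 2 or more deep intronic RCAs it was 11, or 15.9%. Another intronic RCA was present in 104 hosts, or 44.4%, against 15.1% of the long genes that were not hosts. Which of these genes are open at all in liver is not known from the lists, and the part this has in the difference was not tested.

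Counted by gene lists, the hosts were set against the 11.0% of all long genes. The lists were drawn up with earlier results of these data known, so their counts are a description. Density fell with gene length, and only the list of synaptic and neural adhesion genes was set beside genes of like length. The part of gene length in the values per Mb of the other lists was not tested. An RCA at an own start, present in 7.72% of all long genes, was found in 6 of the 13 long genes of hepatocyte transcription factors, 3 of 23 of nuclear receptors and coregulators, 3 of 17 of insulin and growth factor signalling and 3 of 15 of lipids and sterols. It was found in 7 of 49 of cytoskeleton, adhesion and polarity, 1 of 12 of carbohydrate, amino acid and xenobiotic metabolism, 2 of 80 of synaptic and neural adhesion, 1 of 19 markers of other liver cells and 0 of 5 of the circadian clock. Of 23 long genes of nuclear receptors and their coregulators, 6 were hosts (26.1%), with 5.51 deep intronic RCAs per Mb of eligible sequence. Besides Thrb and Ppargc1b, these were Rora, a lipid-binding orphan receptor of the circadian system, with AUCs of 257, 436 and 426, and Nr3c2, the mineralocorticoid receptor, with AUCs of 318, 248 and 252. Nr3c1, the glucocorticoid receptor, had 1 with an AUC of 381, and Esrrg, an orphan receptor of oxidative metabolism, had 1 with an AUC of 355. The 3 regions of Rora lay in a first intron of 542 kb, between 159 and 254 kb from the nearest Rora start.

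Of 13 long genes of hepatocyte transcription factors, 6 were hosts (46.2%), with 7.85 per Mb. After Nfib and Zbtb16 these were Zbtb20, a zinc finger repressor of fetal liver genes, with 2 (highest AUC 367), and Nfia, of the same family as Nfib, with 2 (highest AUC 241). Foxn3 and Tcf7l1, a Wnt pathway factor, had 1 each.

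Among lipid and sterol genes, 5 of 15 were hosts (33.3%), with 11.3 per Mb over only 0.97 Mb. Pitpnc1 led with 4. Ldlrad4 had 3, with a highest AUC of 249.6, and is known as an inhibitor of TGF-beta signalling rather than as a lipoprotein receptor. Without it, 4 of 14 genes of the list were hosts (28.6%), with 8 regions and 10.8 per Mb. Abca1, the exporter of cellular cholesterol, had 2 with AUCs of 335 and 237, and Osbpl8, a lipid transfer protein of the endoplasmic reticulum, had 1 with an AUC of 296. Of the long genes of insulin and growth factor signalling, 5 of 17 were hosts (29.4%), with 2.46 per Mb. Prkce led with 4, Fgfr2, a fibroblast growth factor receptor, had 2, Pik3c2g, a class II phosphoinositide kinase, had 1, and Prkca, protein kinase C alpha, had 1. The annotated Fgfr2 model spans 2961 kb and encloses 29 other coding genes, so it is composite as Gm20388 is. Its 2 regions were nearest to the starts of Chst15 and Lhpp, and the second lay within Lhpp. The model holds 1.02 of the 3.66 Mb of eligible sequence of this list, and values without it were not computed. The Prkca region was nearest to the start of Apoh.

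Cytoskeleton, adhesion and polarity genes counted 16 hosts of 49 (32.7%), with 2.10 per Mb. Arhgef3 led with 4, followed by Lpp, by Myo1e, an unconventional myosin, and by Ptprg, a receptor tyrosine phosphatase, with 2 each. Of the circadian clock genes 1 of 5 was a host, which was Rora, and of the genes of carbohydrate, amino acid and xenobiotic metabolism 1 of 12, which was Gbe1, the glycogen branching enzyme, with an AUC of 467.

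The longest genes of the genome are often neuronal, and 80 long genes of synaptic and neural adhesion formed a list with 53.2 Mb of eligible sequence. Only 6 of them were hosts (7.50%), with 1 region each and 0.113 per Mb. Since density falls with gene length, the list was set beside other genes of like length. At 400 to 800 kb its 33 genes had 1 region, or 0.0725 per Mb, against 0.725 per Mb in the other genes of that length. At 800 kb or more its 38 genes had 5, or 0.134 per Mb, against 0.576 per Mb in the others, and the shorter genes, 8 of 200 to 400 kb and 1 of 100 to 200 kb, held none. The highest of these 6 was in Grid1, a glutamate receptor subunit of the delta class, with an AUC of 377, followed by Lsamp and Ntm, adhesion proteins of the IgLON family, with 249 and 247, and Nrg3, a neuregulin, with 226. Markers of liver cells other than hepatocytes counted 1 host of 19 (5.26%), which was Runx1, a factor of blood cells, with an AUC of 329. The part of other liver cells in the counts was not tested beyond this list.

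Along the chromosomes the density ran from 0.51 per Mb of eligible sequence on chromosome 3 to 2.50 on chromosome 18, with chromosome 19 next at 2.40 per Mb. Chromosome X held none in 18.2 Mb of eligible sequence, where a count of 0 allows up to 0.165 per Mb (3 counts). It held 40 RCAs in all, 4 of them intronic.

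The reverse list served as the comparison in the other direction. Of the 250 regions open only in Alb-D2KO liver, 13 met the same rule, or 5.20% (95% Wilson interval 3.06 to 8.69), an interval that includes the 4.46% of the lost list. The ratio of lost to gained regions was 27.5 for deep intronic regions and 32.1 for the whole lists. The 13 had a median AUC of 224 in the Alb-D2KO call, from 200.6 to 314. The highest was in Cdk14, a cyclin-dependent kinase, at chr5:4961730-4962219. They lay in 12 hosts, and 5 of the 13 were in 4 genes that also held a deep intronic RCA, which were Nav2 with 2 and Snx29, Sdc2 and Exoc6b with 1 each. None of the 14 leading hosts held a region open only in Alb-D2KO liver.

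For what the sequences share, 15 motifs were searched on both strands in the window of the summit and 100 bp on each side. The same search was run on windows of that length laid end to end over the eligible intron sequence, 1618011 windows in all. Their mean GC was 40.8%, against 49.0% round the deep intronic summits, and they were not matched for GC. The FOXA motif TGTTTAC occurred in 8.38% of the deep intronic RCAs (30 of 358, 95% Wilson interval 5.93 to 11.7), in 5.01% of all RCAs and in 3.18% of the intron windows. The C/EBP motif TTGCNNAA occurred in 18.99% (15.3 to 23.4), against 14.4% and 9.81%. The HNF4A motif CAAAGTCCA occurred in 4.19% (2.56 to 6.80), against 2.37% and 0.242%. For ONECUT (TATTGATT) the share was 3.35% (1.93 to 5.77), against 1.73% and 1.17%. For HNF1 (GTTAATNAT) it was 2.23% (1.14 to 4.35), against 1.37% and 0.801%. These 5 are motifs of factors that maintain hepatocyte identity. Other intronic RCAs had FOXA in 5.56%, C/EBP in 16.1%, HNF4A in 2.76%, ONECUT in 1.92% and HNF1 in 1.75%. The deep intronic intervals included these shares for C/EBP, HNF4A and HNF1, and lay above them for FOXA and, narrowly, ONECUT. In intergenic RCAs the shares were 5.02%, 15.3%, 2.55%, 2.14% and 1.32%, in the same order.

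At least 1 of the 5 occurred in 118 of the 358, or 33.0% (95% Wilson interval 28.3 to 37.99). The share was 25.7% of other intronic RCAs (24.1 to 27.4), 29.6% of the intergenic RCAs over 30000 bp from a coding start (26.5 to 32.8) and 14.2% of promoter RCAs (12.6 to 16.1). The interval of the deep intronic RCAs overlapped that of the far intergenic ones and lay above those of other intronic and promoter RCAs. These intervals cover counting error only, and the classes differ in GC content, as given above.

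Among the other motifs, STAT5 (TTCNNNGAA) occurred in 10.1% of deep intronic RCAs (7.35 to 13.6), against 6.84% of all RCAs and 7.56% of the intron windows. The STAT5 interval included the share of the intron windows. AP-1 (TGANTCA) occurred in 10.1% (7.35 to 13.6), against 6.97% and 6.22%. The E-box CACGTG occurred in 6.98% (4.77 to 10.1), against 5.82% and 1.85%, and NR5A2 (TCAAGGTCA) in 1.40% (0.598 to 3.23), against 0.798% and 0.387%. For the E-box and NR5A2 the interval included the share of all RCAs. SP1 (GGGCGG) went the other way between RCAs, with 4.75% of deep intronic RCAs against 14.5% of all and 39.9% of promoter RCAs, and 1.38% of the intron windows. CTCF (CNAGGNGGC) occurred in 5.87% (3.87 to 8.80), against 9.19% of all RCAs and 1.24% of the intron windows. Other intronic RCAs had STAT5 in 6.26%, AP-1 in 7.77%, the E-box in 5.53%, NR5A2 in 0.875%, SP1 in 8.12% and CTCF in 7.66%. All of these but STAT5 and SP1 lay within the deep intronic interval. The 4 longer patterns were found in none of the 358, which allows a share of up to 1.06% by the Wilson interval. They were the half-site AGGTCA repeated with a spacer of 1 base (DR1) or 4 bases (DR4, the classical thyroid hormone response element), TTGGC and GCCAA spaced by 5 bases (NFI), and AGAACA and TGTTCT spaced by 3 bases (glucocorticoid receptor). In all RCAs DR4 occurred in 0.0249%. As spelled, overlaps between motifs were not removed, 149 of the 358 held none of the 15, and the lack of a spelled match says nothing of weaker sites.

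**Figure D5:**
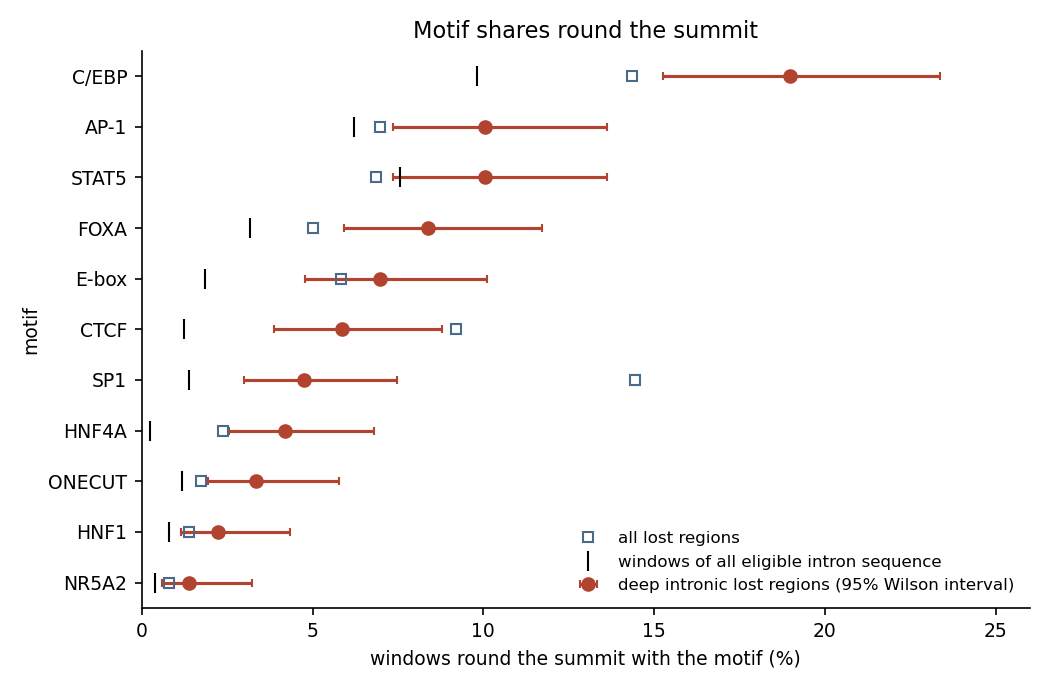
Points give the percent of summit windows with each motif among the 358 deep intronic RCAs with 95% Wilson intervals, squares the share of all RCAs and ticks the share of windows over all eligible intron sequence, for the 11 motifs found at least once. C/EBP leads with 18.99%, and SP1 and CTCF are the motifs whose share in deep intronic RCAs lies below that in all RCAs.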

How the data were processed

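ATAC-seq of 4 control and 4 Alb-D2KO adult liver libraries had been processed by the authors, who aligned reads to mm10 with BWA 0.7.17, removed duplicate and poorly mapped alignments, and called open regions with Genrich 0.6 on grouped libraries. Regions of a genotype that overlapped none of the other gave the deposited lists. The deposited signal of a region is the AUC of its −log10 p, and the deposited −log10 q is that of its summit, both as the authors' caller wrote them. No column belongs to a single library, and depth is unknown.

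Regions were classed with GENCODE M21 on GRCm38.p6, whereas the study's methods name release M24, in the order promoter (200 bp), exon, intron, intergenic, on chromosomes 1 to 19, X and Y, which left out 10 RCAs. The longest qualifying gene was the host. Eligible sequence was intron meeting the same rule. The member list was checked with bedtools 2.31.1 and the code tested on simulated data, with numpy, pandas and scipy. Named genes were the 15 hosts with the most regions (ties by summed AUC), of which 1 is not reported here, the 10 regions with the highest AUC, the 5 densest hosts, up to 4 hosts of each of 9 gene lists, and regions at the thresholds. The members and lists were chosen with earlier results of these data known. No test between genotypes was possible. Intervals are 95% Wilson or Poisson. The alternatives were other distances, host lengths, windows, starts, exons, and thresholds of AUC, q and width.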

Additional observations from a re-analysis of the deposited data

How the results depend on the processing

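With a distance of over 10 kb in place of 30 kb, 770 RCAs in 454 hosts qualified, at 1.64 per Mb, with 18.2% of long genes as hosts and 25 regions of the reverse list. Over 50 kb, the values were 214 RCAs, 143 hosts, 0.873 per Mb, 9.24% and 7. Counting starts of all gene types left 227 RCAs at 0.976 per Mb and 8.54% of genes. Hosts of at least 50 kb gave 9.02% of genes, and hosts of at least 200 kb gave 237 RCAs in 143 hosts, 0.875 per Mb and 14.5%. These follow from the construction of the rule, since they change the sequence allowed. An AUC of at least 300 left 126 RCAs in 101 hosts, with a median AUC of 368, a median width of 409 bp, 0.385 per Mb, 4.75% of genes and 1 region of the reverse list. A summit q under 0.001 left 232 RCAs with a median AUC of 297, 0.709 per Mb, 7.95% of genes and 7 of the reverse list. Looser motif searches were read for the deep intronic RCAs only, so their shares cannot be set against other RCAs or intron windows. The share with a hepatocyte motif rose from 33.0% to 45.3% over whole regions and to 58.1% with 1 mismatch allowed in HNF4A, HNF1 and ONECUT, while the shorter FOXA and C/EBP motifs stayed exact. Of 116 alternative values, these 32 moved, and the other 84 stayed within their interval or within 1.5 times the count, including all 8 for the region midpoint, for a 1000 bp promoter window and for leaving out Gm20388, which was chosen after seeing the data, as was the shortest gene as host. No paired analysis was possible because regions were called on grouped libraries, and for the same reason no library could be left out. Depth is unknown, so no limit set by depth can be given.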
